A study of Mus musculus with 6 samples.

Results

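Tetraspanins and the related L6 proteins are small proteins that cross the cell membrane 4 times, and 31 of their genes were followed among 18193 genes measured in mouse uterine epithelium. They were chosen by name: genes whose symbol begins with Tspan or Tm4sf and a digit, together with Cd9, Cd37, Cd53, Cd81, Cd82, Cd151, Upk1a and Upk1b. Cd63 was also sought by name, but Cd63, Tspan7 and Tm4sf19 had no probe set with a single gene symbol and were not analysed. The array carries 67 probe sets for the 31 genes, and the one with the highest mean log2(signal + 1) over all arrays stood for its gene.

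The study profiled epithelium of pregnant mice on 6 Affymetrix 3′ arrays, 2 in each of 3 groups. The first group was Sox17GFP/+, with 1 GFP allele and 1 normal allele of Sox17 (Sox17 heterozygous), and was taken on day 4 of pregnancy (samples 253 and 281, given in that order throughout). The second was wild type (WT) on day 4 (277 and 284), and the third was WT on day 1, the day of the vaginal plug (302 and 303); strain and age are not given in the sources used here. Epithelium was freed from uterine pieces with pancreatin and dispase, with no sorting of luminal from glandular cells described, and nothing says that the numbered samples were separate animals, so p-values measure only the spread between these samples.

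Tetraspanins act as organisers of the membrane: they bind integrins, proteases, growth factor precursors and each other, and gather them into small domains. In mice Cd9 on the egg is needed for fusion with sperm and Cd81 contributes to it, the TspanC8 members carry the protease ADAM10 to the cell surface, and the uroplakins line the bladder. Uterine epithelium passes from estrogen control on day 1 to progesterone control by day 4, when its surface is remodelled for attachment of the embryo, and SOX17 is a transcription factor of that epithelium.

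The targeted gene itself read 30189 and 28810 in heterozygotes, 34794 and 35060 in WT day 4 epithelium, and 7738 and 8671 in WT day 1 epithelium. Sox17 was thus slightly lower on both heterozygous arrays than on either WT day 4 array, a log2 difference of -0.24 ± 0.19 (standard error, SE) that did not pass (limma adjusted p = 0.586), and where its probe set lies relative to the GFP allele's change was not analysed here. The epithelial markers Epcam, Krt8, Krt18 and Krt19 read at least 15142 on all arrays, and the summed signal of 9 epithelial markers lay between 149566 and 170154. Single markers of the list did change: in WT day 4 against WT day 1, Krt7 fell by 2.33 ± 0.20 (limma adjusted p = 0.00911) and Cldn3 rose by 1.39 ± 0.21 (adjusted p = 0.0254). In heterozygotes Krt7 and Cldn4 were 0.89 ± 0.20 and 0.82 ± 0.24 above WT day 4, which passed in a fit that models the spread as a trend of intensity (adjusted p = 0.00936 and 0.0270) and not in the default fit (0.240 and 0.301). With that trend 1 of the 9 markers rose and 3 fell in WT day 4 against WT day 1. Epcam was among those that fell (-0.59 ± 0.18, trend adjusted p = 0.0224, default 0.119). It was also lower in heterozygotes than in WT day 1 (-0.69 ± 0.18, trend adjusted p = 0.0109, default 0.0966). WT day 4 array 277 stood apart in its dim range: its median probe set signal was 138, and those of the other 5 lay between 66.2 and 78.0. In bulk epithelium, fewer cells of a type and less RNA per cell cannot be told apart.

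Between day 1 and day 4 of a WT pregnancy the family split in both directions. In WT day 4 epithelium 4 members rose against WT day 1 (Tm4sf1, Tm4sf4, Tspan5 and Tspan9) and 6 fell (Cd81, Tspan1, Tspan8, Tspan12, Tspan17 and Tspan33), at an adjusted p under 0.05 in limma's default fit with Benjamini-Hochberg adjustment over all genes. These 10 of 31 members compare with 13.3% of all genes called in either direction, 7.58% higher and 5.73% lower. The other 21 members lay between -3.10 (Tspan4) and 2.91 (Cd37) on the log2 scale, and 15 of them within a 2-fold change. The median member change was 0.02, against 0.30 over all genes. The fit with the intensity trend called 11 members with all arrays (background 24.8%). The default calls depended on single arrays: without either WT day 1 array they were lost across all genes. Without either heterozygous array only those of Tm4sf4, Cd81, Tspan1, Tspan12 and Tspan33 were kept.

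In Sox17 heterozygotes on day 4, Tm4sf1 was far below WT day 4, and Cd81 and Tspan8 were above it. Limma's default fit called 0 of the 31 members, as it called 0% of all genes, with 6 members at an unadjusted p under 0.05 (background 13.2%). These 6 were Tm4sf1, Tm4sf4 and Cd53, which were lower in heterozygotes, and Cd81, Tspan8 and Tspan12, which were higher, and each differed by at least 2-fold, as did 8.94% of all genes at that p. With the intensity trend 3 members passed, Tm4sf1 lower and Cd81 and Tspan8 higher, against 3.52% of all genes (1.93% higher and 1.59% lower). The median member difference was 0.04, against -0.20 over all genes. Every SE in the text and in the plot of changes comes from the default fit, including those given next to a p-value of the trend fit.

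**Figure D1:**
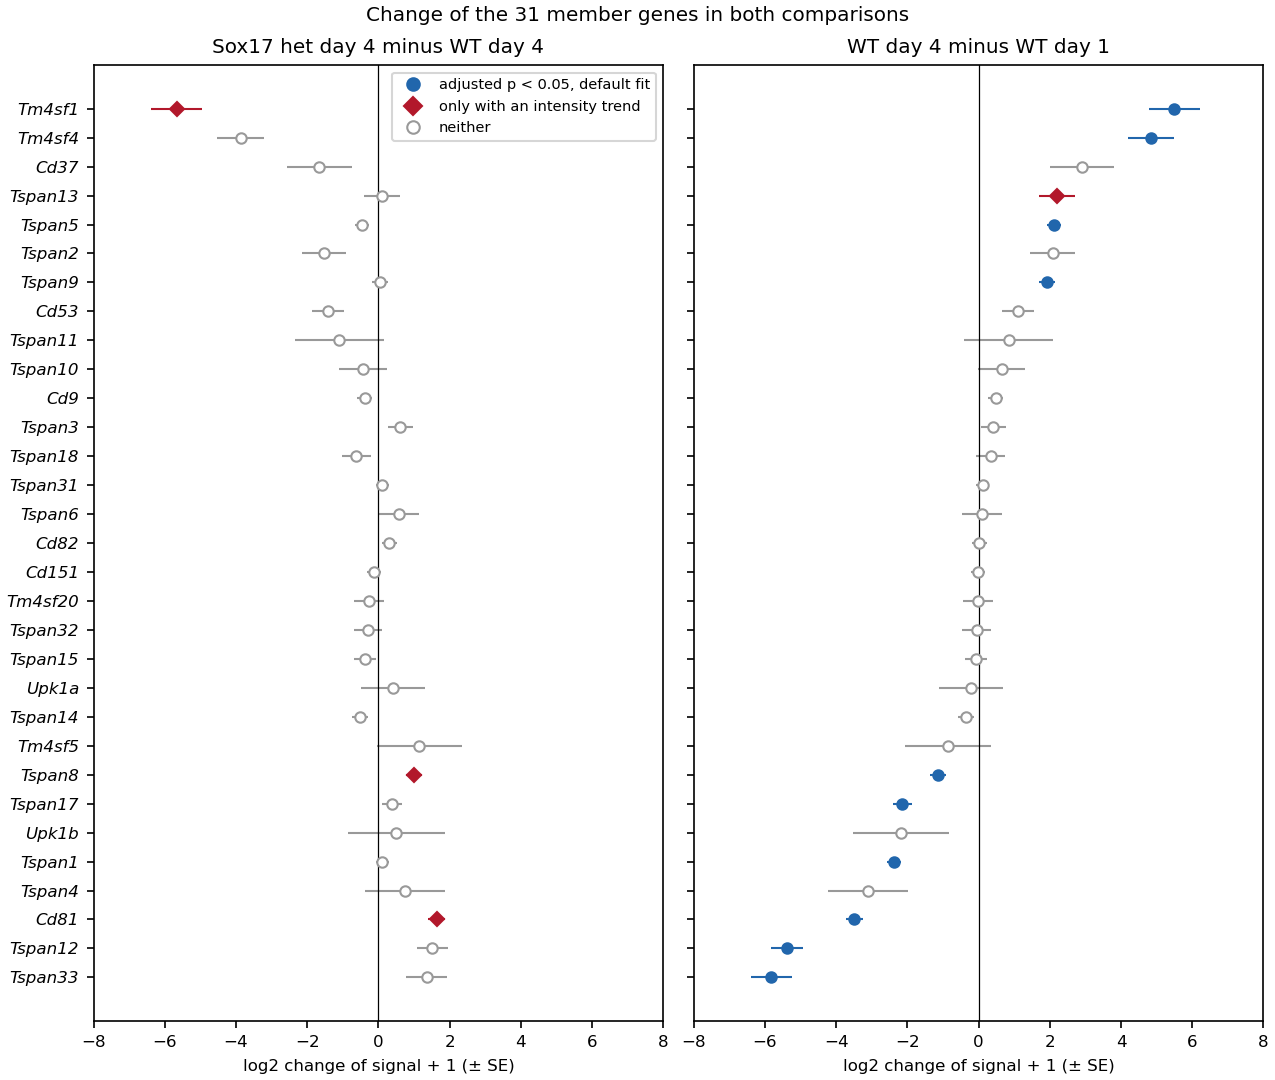
Log2 change of signal + 1 (points) with its SE (bars) for the 31 genes, for Sox17 heterozygous day 4 minus WT day 4 (left) and WT day 4 minus WT day 1 (right), ordered by the right panel. Filled blue circles passed in limma's default fit and red diamonds only with an intensity trend; Tm4sf1 lies at -5.66 on the left and 5.49 on the right, and 20 genes lie within 2-fold on the left.

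The L6 family, named after the tumour antigen L6, resembles tetraspanins in topology but is a separate family. Tm4sf1, its founding member, is a surface protein of endothelium and of many epithelial tumours and takes part in cell movement. It read 155 and 403 in Sox17 heterozygous epithelium, 11979 and 13528 in WT day 4 epithelium, and 166 and 479 in WT day 1 epithelium. Only the WT day 4 arrays were high, and the heterozygous arrays overlapped those of WT day 1. Tm4sf1 rose by 5.49 ± 0.71 in WT day 4 against WT day 1 (limma adjusted p = 0.0186), which is 44.9-fold on the scale of log2(signal + 1). In heterozygotes it was far below WT day 4 (log2 difference -5.66 ± 0.71, 95% interval -7.58 to -3.75), or 50.7-fold lower, with an adjusted p of 0.154 in the default fit and 0.000294 with the intensity trend. Leaving out any 1 array kept the trend call against WT day 4, with adjusted p up to 0.0116. The default call between the WT days was lost without any 1 array (adjusted p from 0.0502 to 0.0963) and in a fit of the 4 WT arrays alone (adjusted p = 0.0502), while the trend fit kept it without any 1 array (adjusted p up to 0.00149). Against WT day 1 the heterozygous difference was -0.17 ± 0.71 (adjusted p = 0.922), with an interval from -2.09 to 1.74 that leaves room for a several-fold change either way.

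In the other probe sets of Tm4sf1 the WT day 4 arrays were again the high ones. One read 7.5 and 5.21 in heterozygotes, 475 and 784 in WT day 4, and 54.8 and 13.7 in WT day 1 epithelium. The other read 5.83 and 6.06 in heterozygotes, 239 and 234 in WT day 4, and 5.23 and 31.2 in WT day 1 epithelium. All 3 passed with the intensity trend in both the heterozygous and the day comparison when every probe set was fitted on its own. Against WT day 1 they were less alike. Heterozygotes differed by -1.98 ± 0.73, without overlap, in the probe set that read 475 and 784 in WT day 4 (limma adjusted p = 0.212, and 0.161 with the trend). In the dimmer one they differed by -1.03 ± 0.82 (adjusted p = 0.552, and 0.621 with the trend).

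Because Tm4sf1 is also an endothelial gene, the endothelial markers were read beside it. The summed signal of 8 endothelial markers was 310 and 379 in heterozygotes, 828 and 388 in WT day 4, and 381 and 421 in WT day 1 epithelium, and 4 of the 8 averaged below 50. The defining marker Pecam1 read 4.95 and 47.9 in heterozygotes, 121 and 62.9 in WT day 4, and 2.42 and 7.66 in WT day 1 epithelium. Pecam1 was highest on the WT day 4 arrays, at dim signals: its WT day 4 minus WT day 1 difference was 4.02 ± 1.18 (limma adjusted p = 0.104, and 0.0352 with the trend), and heterozygotes differed from WT day 4 by -2.37 ± 1.18 (adjusted p = 0.449). None of the other endothelial markers passed in either fit between these groups. In WT day 4 Esam and Tie1 lay below WT day 1 (-0.73 ± 0.65 and -0.97 ± 0.80) and the median of the list was 0.46, against 0.30 over all genes. In heterozygotes 7 of the 8 lay below WT day 4 and Egfl7 above it (0.45 ± 0.46), with a median of -1.07, against -0.20 over all genes. The part of endothelial RNA in the Tm4sf1 values was not tested.

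Tm4sf4, first described in intestine and liver, had a similar profile at dim signals: 8.28 and 28.8 in heterozygotes, 261 and 225 in WT day 4, and 9.99 and 5.54 in WT day 1 epithelium. The WT day 4 arrays were again the high ones, with no overlap with either other group. Tm4sf4 rose by 4.84 ± 0.65 in WT day 4 against WT day 1 (limma adjusted p = 0.0197), a default call lost without any 1 WT array (adjusted p from 0.0543 to 0.112) and kept in the trend fit (adjusted p up to 0.0305). Its heterozygous difference from WT day 4 was -3.87 ± 0.65 (adjusted p = 0.190, and 0.0583 with the trend; 0.0424 with the trend after each array was centred on its median). These sizes rest on signals near 10, and with a pseudocount of 32 in place of 1 they were 2.79 and -2.47. The remaining L6 genes were dim on all arrays: Tm4sf5 read 36.8 and 26.3 in heterozygotes, 25.1 and 7.0 in WT day 4, and 7.99 and 74.2 in WT day 1 epithelium, and Tm4sf20 lay between 1.73 and 4.38. Neither passed in any comparison.

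Tm4sf1 and Tm4sf4 are neighbours on chromosome 3 with 0 annotated protein-coding genes between them, in the RefSeq annotation of GRCm38.p6. Their next protein-coding neighbour, Wwtr1, which encodes the transcriptional coactivator TAZ, read 1545 and 1706 in heterozygotes, 1367 and 1637 in WT day 4, and 2655 and 2364 in WT day 1 epithelium. Wwtr1 did not share the pattern: its heterozygous difference was 0.12 ± 0.21 (limma adjusted p = 0.813) and its WT day 4 minus WT day 1 difference -0.74 ± 0.21 (adjusted p = 0.0997, and 0.00546 with the trend, as lower). The 250 bases before the annotated starts of the neighbouring pair, and of Cd81 and Tspan8, which differed from WT day 4 in the opposite direction in heterozygotes, are shown so that the promoters of both patterns can be compared. All 4 sequences are RefSeq's for GRCm38.p6, 5′ to 3′ on the gene's strand, and capitals mark a SOX core (ACAAT, or ATTGT read on the other strand).
Tm4sf1 chr3:57301989-57302238, minus strand: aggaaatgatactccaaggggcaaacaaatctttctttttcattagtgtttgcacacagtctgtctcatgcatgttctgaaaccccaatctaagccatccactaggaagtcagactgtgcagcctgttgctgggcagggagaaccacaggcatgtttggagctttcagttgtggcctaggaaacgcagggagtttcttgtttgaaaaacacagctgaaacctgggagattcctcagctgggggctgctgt
Tm4sf4 chr3:57425160-57425409, plus strand: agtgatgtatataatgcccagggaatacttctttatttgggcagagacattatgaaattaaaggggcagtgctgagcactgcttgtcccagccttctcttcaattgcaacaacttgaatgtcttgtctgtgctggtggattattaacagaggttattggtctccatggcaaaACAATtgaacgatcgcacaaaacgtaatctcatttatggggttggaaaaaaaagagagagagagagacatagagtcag
Cd81 chr7:143052500-143052749, plus strand: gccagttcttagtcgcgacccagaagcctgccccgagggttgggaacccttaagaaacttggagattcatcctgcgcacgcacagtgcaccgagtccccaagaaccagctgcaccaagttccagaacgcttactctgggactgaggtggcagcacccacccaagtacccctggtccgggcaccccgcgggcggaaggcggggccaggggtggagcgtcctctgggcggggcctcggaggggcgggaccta
Tspan8 chr10:115817034-115817283, plus strand: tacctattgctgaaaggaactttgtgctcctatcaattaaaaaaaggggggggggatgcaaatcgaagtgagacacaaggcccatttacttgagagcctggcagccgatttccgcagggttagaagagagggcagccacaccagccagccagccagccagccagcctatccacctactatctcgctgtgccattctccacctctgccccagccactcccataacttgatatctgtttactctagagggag
The Tm4sf4 window held 1 SOX core and the other 3 windows held 0. That short motif occurs in 27.7% of 32851 mouse promoter windows of this length. Among the 28 member genes with an entry, 10 had it in any of their windows. This count is per gene and cannot be set against the share of windows. A share per gene over all genes was not counted, so whether the members have more or fewer is not known. None of the 4 windows held the estrogen response element GGTCANNNTGACC, found in 0.0639% of windows, or the progesterone or glucocorticoid response element GNACANNNTGTNC, found in 0.387%. The GC content was 48.0% for Tm4sf1, 40.8% for Tm4sf4, 65.6% for Cd81 and 52.4% for Tspan8. A match is a run of letters and not a bound site.

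**Figure D2:**
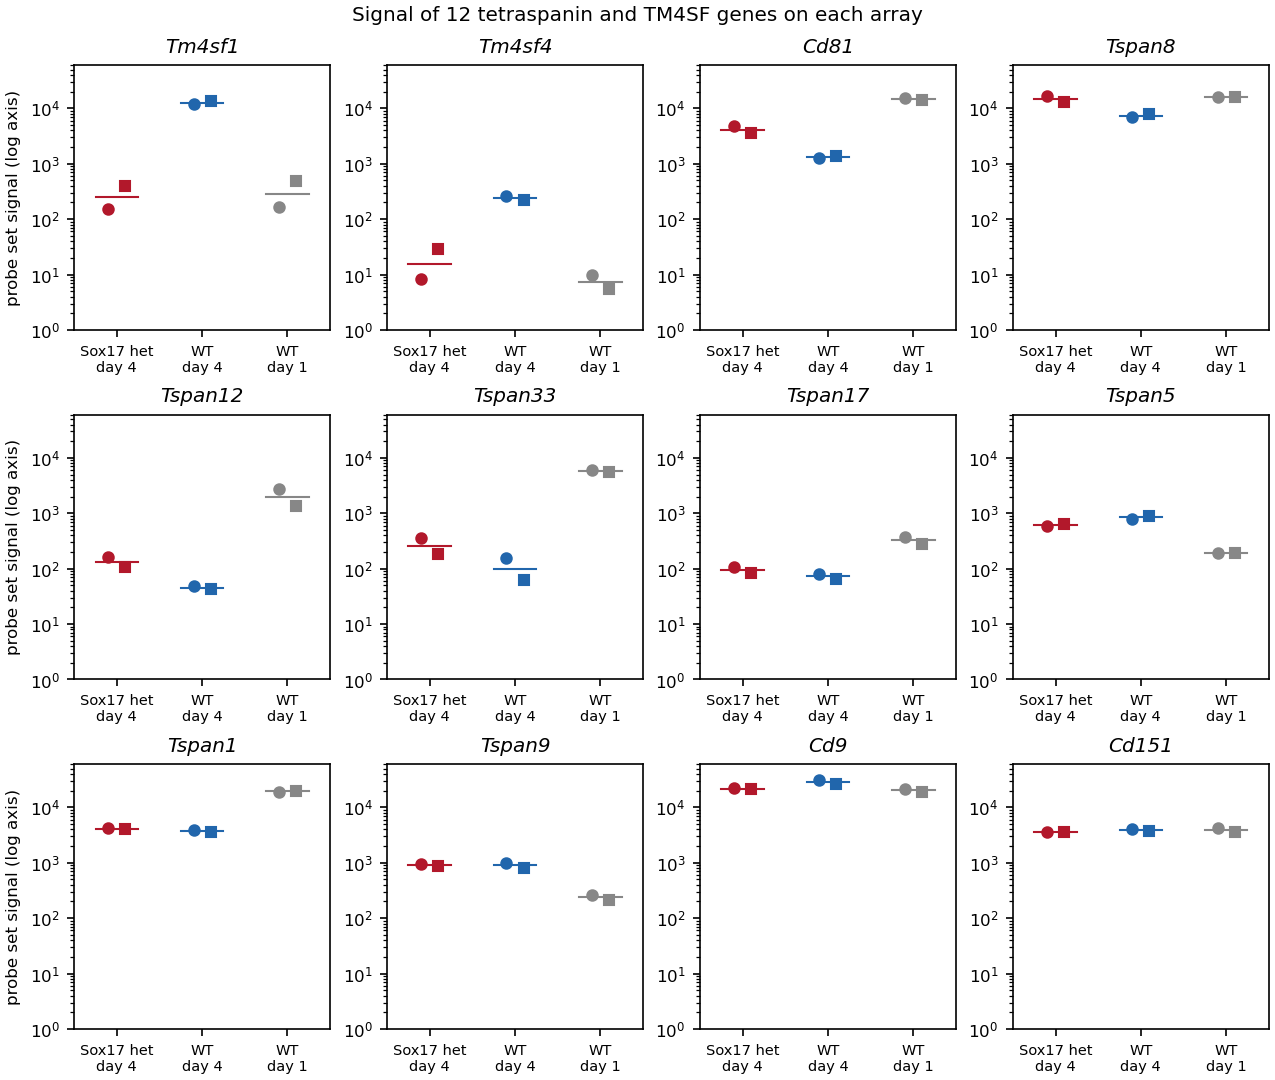
Signal of 12 member genes on each array (log axis), with Sox17 heterozygous day 4 on the left, WT day 4 in the middle and WT day 1 on the right; the circle is the lower-numbered sample, the square the other, and the line their geometric mean. Tm4sf1 and Tm4sf4 are high on the WT day 4 arrays alone, the heterozygous arrays of Cd81 lie between the WT groups, and Cd9 and Cd151 differ little between arrays.

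Among the tetraspanins with CD names, Cd81 changed, and the widely expressed others did not pass in the default or the trend fit with all arrays. Cd81, a partner of immunoglobulin superfamily proteins in many cells, read 4862 and 3532 in heterozygotes, 1279 and 1395 in WT day 4, and 15659 and 14369 in WT day 1 epithelium. The 3 groups did not overlap, with the heterozygous arrays between the WT ones. Cd81 fell by 3.49 ± 0.24 in WT day 4 against WT day 1 (limma adjusted p = 0.00763, 11.2-fold). In heterozygotes it was 1.63 ± 0.24 above WT day 4, or 3.10-fold (adjusted p = 0.169 in the default fit and 0.000950 with the trend), and it lay below WT day 1 (difference -1.86 ± 0.24, adjusted p = 0.0243). The trend call against WT day 4 held without any 1 array (adjusted p up to 0.0140) but not after median centring of the arrays (difference 2.08, adjusted p = 0.0633). Cd81 has 1 probe set on this array, so no second reading was to be had.

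Cd9, the other egg tetraspanin, read 22063 and 21347 in heterozygotes, 31007 and 25950 in WT day 4, and 21380 and 19298 in WT day 1 epithelium. The WT day 4 arrays were the highest and did not overlap with either other group. The differences were small: -0.39 ± 0.21 for heterozygotes against WT day 4 (limma adjusted p = 0.471) and 0.48 ± 0.21 for WT day 4 against WT day 1 (adjusted p = 0.212). The heterozygous difference turned to 0.06 after median centring.

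Cd151, which binds laminin-binding integrins, read 3570 and 3579 in heterozygotes, 4097 and 3685 in WT day 4, and 4271 and 3613 in WT day 1 epithelium. Cd82, known in human tumours as a metastasis suppressor, read 3709 and 3781 in heterozygotes, 3336 and 2753 in WT day 4, and 2848 and 3143 in WT day 1 epithelium. Neither passed in any comparison. The 95% interval of the heterozygous difference from WT day 4 ran from -0.67 to 0.42 for Cd151 and from -0.25 to 0.86 for Cd82, so for Cd82 the interval reaches nearly 2-fold.

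Cd53 and Cd37 are tetraspanins of leukocytes. Cd53 read 74.0 and 34.2 in heterozygotes, 120 and 153 in WT day 4, and 53.1 and 74.1 in WT day 1 epithelium. Its heterozygous arrays lay below those of WT day 4, by a log2 difference of -1.41 ± 0.45 (unadjusted p = 0.0314, limma adjusted p = 0.335), and neither it nor Cd37 passed in the default or the trend fit with all arrays. Cd37 did pass in WT day 4 against WT day 1, as higher, after each array was centred on its median, in both fits. The summed signal of 11 leukocyte markers was 2984 and 1387 in heterozygotes, 2312 and 1322 in WT day 4, and 10070 and 8888 in WT day 1 epithelium, and 2 of the 11 averaged below 50. The day 1 sums came mostly from Cd68 and Itgam, which fell in WT day 4. The pan-leukocyte marker Ptprc read 30.3 and 18.9 in heterozygotes, 98.0 and 112 in WT day 4, and 62.9 and 57.0 in WT day 1 epithelium. Ptprc was thus low where Cd53 was low, but the list did not move as a whole: in heterozygotes 6 of the 11 markers were lower than in WT day 4 and 5 higher, 0 passed in either fit, and the median difference was -0.75, against -0.20 over all genes. Among the 6 lower ones were Ptprc (-2.08 ± 0.30, limma adjusted p = 0.169), Coro1a at dim signals (-3.27 ± 0.62, adjusted p = 0.210) and Tyrobp (-1.67 ± 0.31, adjusted p = 0.209). Among the 5 higher ones were Cd52 (0.93 ± 0.36, adjusted p = 0.388), Laptm5 (1.49 ± 0.69, adjusted p = 0.426) and Itgam (2.19 ± 0.85, adjusted p = 0.384). The part of leukocyte RNA in the Cd53 values was not tested.

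The TspanC8 group, whose members escort ADAM10 out of the endoplasmic reticulum and differ in the substrates they favour, had members that rose and members that fell with the day. Of its 6 members 1 rose and 2 fell in WT day 4 against WT day 1 (7.58% and 5.73% of all genes did), and 3 did not pass. Between heterozygotes and WT day 4, 0 passed in either fit with all arrays (0% of all genes in the default fit and 3.52% with the trend), while the trend fit called Tspan33 higher without array 277 (adjusted p = 0.0346) and Tspan14 lower without array 284 (adjusted p = 0.0325). Tspan33 had the largest WT day 4 minus WT day 1 change of the 31 genes. It read 362 and 183 in heterozygotes, 158 and 63.4 in WT day 4, and 5924 and 5552 in WT day 1 epithelium. Both day 4 groups were low, and Tspan33 fell by 5.82 ± 0.58 in WT day 4 (limma adjusted p = 0.0113, 56.6-fold). In heterozygotes it lay 1.35 ± 0.58 above WT day 4 (adjusted p = 0.414) and below WT day 1 (difference -4.47 ± 0.58, adjusted p = 0.0236). All 4 probe sets of Tspan33 passed in both comparisons with day 1, with day differences between -5.82 and -4.44.

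Tspan17 read 107 and 82.3 in heterozygotes, 80.1 and 65.3 in WT day 4, and 369 and 282 in WT day 1 epithelium. It fell by 2.14 ± 0.27 in WT day 4 against WT day 1 (limma adjusted p = 0.0180), a call that the trend fit lost without sample 302. Its heterozygous difference from WT day 4 was 0.37 ± 0.27 (adjusted p = 0.570). Heterozygotes differed from WT day 1 by -1.77 ± 0.27 (adjusted p = 0.0332), a call that the trend fit lost without sample 302, 303, 253 or 281. The second Tspan17 probe set, fitted on its own, passed in neither comparison with WT day 1. It differed by -1.51 ± 0.33 in WT day 4 (adjusted p = 0.0664, trend 0.117) and by -1.38 ± 0.33 in heterozygotes (0.0967, trend 0.175). Tspan5 went the other way, with 588 and 640 in heterozygotes, 791 and 909 in WT day 4, and 191 and 195 in WT day 1 epithelium. Tspan5 rose by 2.13 ± 0.20 in WT day 4 against WT day 1 (adjusted p = 0.0101). Heterozygotes lay 1.67 ± 0.20 above WT day 1 (adjusted p = 0.020) and differed from WT day 4 by -0.47 ± 0.20 (adjusted p = 0.413). The second Tspan5 probe set, fitted on its own, rose by 1.22 ± 0.27 between the WT days (adjusted p = 0.0642, and 0.0299 with the trend). In that probe set heterozygotes lay 1.01 ± 0.27 above WT day 1 (adjusted p = 0.114, and 0.0789 with the trend).

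Tspan14 read 3210 and 2969 in heterozygotes, 5063 and 3915 in WT day 4, and 5403 and 6002 in WT day 1 epithelium. Its heterozygous arrays were the lowest, by -0.88 ± 0.23 against WT day 1 (limma adjusted p = 0.0916, and 0.00256 with the trend) and by -0.53 ± 0.23 against WT day 4 (adjusted p = 0.415). Tspan10 and Tspan15 did not pass in any comparison. Adam10 itself, the protease these proteins carry, read 5350 and 5589 in heterozygotes, 3492 and 4559 in WT day 4, and 12749 and 9418 in WT day 1 epithelium. Adam10 fell by 1.46 ± 0.27 in WT day 4 against WT day 1 (adjusted p = 0.0380) and was 0.45 ± 0.27 above WT day 4 in heterozygotes (adjusted p = 0.499).

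Of the 13 other Tspan genes, 1 rose and 3 fell in WT day 4 against WT day 1 and 9 did not pass, where 7.58% of all genes rose and 5.73% fell. Tspan8, a tetraspanin of gut and other secretory epithelia, read 16711 and 13066 in heterozygotes, 6960 and 7761 in WT day 4, and 16056 and 16230 in WT day 1 epithelium. The WT day 4 arrays were the low ones, and the heterozygous arrays spanned the WT day 1 values. Tspan8 fell by 1.14 ± 0.22 in WT day 4 against WT day 1 (limma adjusted p = 0.0441), close to the threshold, and 10 of 22 alternative settings kept the call. In heterozygotes it was 1.01 ± 0.22 above WT day 4, or 2.01-fold (adjusted p = 0.235, and 0.0106 with the trend), and -0.13 ± 0.22 from WT day 1 (adjusted p = 0.796). The trend call was lost without heterozygous sample 253 (adjusted p = 0.204) and after median centring, where the difference was larger, at 1.46 (adjusted p = 0.412). All 5 probe sets of Tspan8 were higher in heterozygotes than in WT day 4, by 0.35 to 1.48, and 3 of them passed with the trend. Against WT day 1 the 5 did not agree: the heterozygous differences ran from -0.70 to 0.375, and 3 had the sign of the one used. The probe set at -0.70 ± 0.27 passed as lower with the trend (adjusted p = 0.0438) and not in the default fit (0.236).

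**Figure D3:**
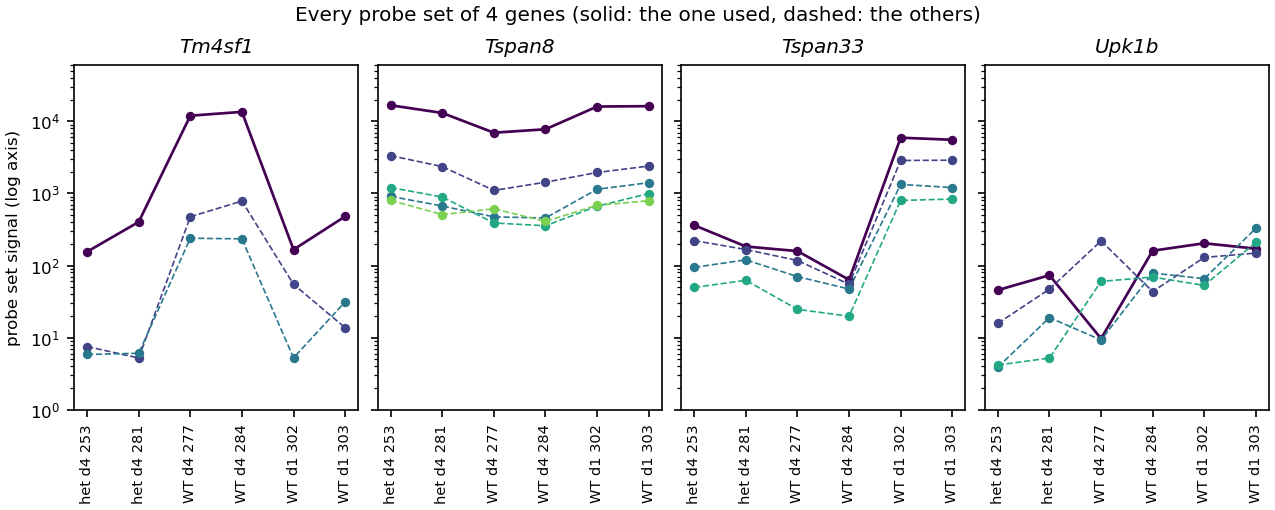
Signal of every probe set (one line each, log axis) of Tm4sf1, Tspan8, Tspan33 and Upk1b on the arrays, from left to right heterozygous day 4, WT day 4 and WT day 1; the solid line is the probe set that represents the gene. Within each of the first 3 genes, all lines change in the same direction on average between heterozygotes and WT day 4, and between the WT days. Those of Upk1b cross between heterozygotes and WT day 4.

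Tspan1 and Tspan12 were lower in both day 4 groups than in WT day 1. No heterozygous day 1 samples were profiled, so a day change within heterozygotes was not measured. Tspan1, found mainly in epithelia, read 4185 and 4013 in heterozygotes, 3925 and 3664 in WT day 4, and 19308 and 20082 in WT day 1 epithelium. It fell by 2.38 ± 0.18 in WT day 4 against WT day 1 (limma adjusted p = 0.00822) and was 2.26 ± 0.18 lower in heterozygotes than in WT day 1 (adjusted p = 0.0118). The difference between the day 4 groups was 0.11 ± 0.18 (adjusted p = 0.795, interval -0.38 to 0.61), which bounds it to less than 2-fold.

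Tspan12, a co-receptor of the Wnt receptor FZD4 in retinal vessels, read 161 and 108 in heterozygotes, 47.7 and 43.4 in WT day 4, and 2786 and 1344 in WT day 1 epithelium. None of the groups overlapped. It fell by 5.38 ± 0.44 in WT day 4 against WT day 1 (limma adjusted p = 0.00866, 41.6-fold) and fell by 3.86 ± 0.44 in heterozygotes against WT day 1 (adjusted p = 0.0194). Heterozygotes lay 1.52 ± 0.44 above WT day 4 (unadjusted p = 0.0228, adjusted p = 0.302, and 0.0833 with the trend).

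Tspan9, best known from platelets, read 957 and 889 in heterozygotes, 989 and 816 in WT day 4, and 258 and 217 in WT day 1 epithelium. It rose by 1.92 ± 0.22 in WT day 4 against WT day 1 (limma adjusted p = 0.0152). Heterozygotes lay 1.96 ± 0.22 above WT day 1 (adjusted p = 0.0189), and the day 4 groups differed by 0.04 ± 0.22 (adjusted p = 0.942). A dim second probe set of Tspan9 read 57.8 and 36.2 in heterozygotes, 11.6 and 8.09 in WT day 4, and 3.71 and 4.98 in WT day 1 epithelium. Fitted on its own, it was 2.13 ± 0.36 higher in heterozygotes than in WT day 4 (adjusted p = 0.224, and 0.343 with the trend). Its WT day 4 minus WT day 1 difference did not pass, at 1.01 ± 0.36 (adjusted p = 0.169, and 0.566 with the trend). Heterozygotes lay 3.14 ± 0.36 above WT day 1 in it (adjusted p = 0.0241, and 0.0592 with the trend). Tspan13 read 622 and 490 in heterozygotes, 572 and 466 in WT day 4, and 70.3 and 176 in WT day 1 epithelium. Both day 4 groups were high, by 2.20 ± 0.50 for WT (adjusted p = 0.0618, and 0.00212 with the trend) and 2.30 ± 0.50 for heterozygotes (adjusted p = 0.0654, and 0.00186 with the trend). Tspan3 read 837 and 637 in heterozygotes, 594 and 384 in WT day 4, and 303 and 420 in WT day 1 epithelium; it was 1.03 ± 0.35 above WT day 1 in heterozygotes (trend adjusted p = 0.0243, default 0.156), a call lost without sample 302, 253 or 281.

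The uroplakins Upk1a and Upk1b, which pair with UPK2 and UPK3 proteins in the bladder lining, were dim here and varied within groups. Upk1a read 138 and 92.1 in heterozygotes, 207 and 34.6 in WT day 4, and 91.8 and 105 in WT day 1 epithelium. Upk1b read 45.6 and 73.3 in heterozygotes, 9.68 and 160 in WT day 4, and 203 and 171 in WT day 1 epithelium. The WT day 4 pair was the most spread in both genes, and neither passed in the default or the trend fit with all arrays. Without WT day 4 array 284, Upk1b was lower in WT day 4 than in WT day 1 by a log2 difference of -4.13 (limma adjusted p = 0.0302, and 0.00353 with the trend), against -2.18 ± 1.35 with all arrays (adjusted p = 0.359). One of its other probe sets, fitted on its own, was lower in heterozygotes than in WT day 1 (difference -4.23 ± 0.69, adjusted p = 0.0451, and 0.00913 with the trend). Against WT day 1 the trend fit also called Upk1b lower in heterozygotes without WT day 4 array 277 (adjusted p = 0.0194). Only 1 of the 4 Upk1b probe sets, the one used, was higher in heterozygotes than in WT day 4. The partner genes Upk2, Upk3a and Upk3b did not pass either, with heterozygous differences from WT day 4 of -1.34 ± 0.57, 0.24 ± 0.90 and -0.38 ± 0.93.

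Heterozygotes set against WT day 1 gave 7 calls among the members, 2 higher (Tspan5 and Tspan9) and 5 lower (Cd81, Tspan1, Tspan12, Tspan17 and Tspan33), where 9.55% of all genes were called (5.07% higher and 4.48% lower). Tm4sf1, Tm4sf4 and Tspan8, which passed between the WT days, did not pass here, with differences of -0.17 ± 0.71, 0.97 ± 0.65 and -0.13 ± 0.22. This comparison shares its samples with both others, so it is no independent evidence. The default calls were lost across all genes without either WT day 1 or either heterozygous array. With the trend 10 members were called with all arrays (background 21.3%). Without overlap between groups were 20 members for heterozygotes against WT day 4 (48.5% of all genes), 19 for WT day 4 against WT day 1 (56.6%) and 19 for heterozygotes against WT day 1 (62.3%).

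Of 36 known binding partners and pathway genes of tetraspanins, 35 were measured. In WT day 4 against WT day 1, 2 rose, 8 fell and 25 did not pass, where 7.58% of all genes rose and 5.73% fell. Igsf8 and Ptgfrn, the immunoglobulin superfamily proteins that bind CD9 and CD81 directly, both fell. Igsf8 read 272 and 258 in heterozygotes, 379 and 186 in WT day 4, and 1496 and 1533 in WT day 1 epithelium, a fall of 2.51 ± 0.39 in WT day 4 (limma adjusted p = 0.0270). Ptgfrn read 1401 and 1385 in heterozygotes, 1975 and 1970 in WT day 4, and 4195 and 3657 in WT day 1 epithelium, with a WT day 4 difference of -0.99 ± 0.19 (adjusted p = 0.0430). The hepatocyte growth factor receptor Met and the integrin subunit Itgav fell by 3.54 ± 0.32 (adjusted p = 0.00964) and 1.90 ± 0.29 (adjusted p = 0.0260). Rdx, which encodes radixin, a link between membrane proteins and actin, rose by 2.35 ± 0.20 (adjusted p = 0.00911).

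Between heterozygotes and WT day 4, 0 of the 35 partners passed in the default fit and 3 were higher with the trend (Hbegf, Itga6 and Cldn1), against 0% and 1.93% of all genes. Hbegf, whose membrane-bound precursor associates with CD9, read 4872 and 4069 in heterozygotes, 1388 and 1396 in WT day 4, and 13174 and 10953 in WT day 1 epithelium. As for Cd81, the heterozygous arrays lay between the WT groups: Hbegf was 1.68 ± 0.22 above WT day 4 (trend adjusted p = 0.000565, default 0.161). Itga6, the laminin-binding integrin subunit that associates with CD151, read 7723 and 8209 in heterozygotes, 3572 and 4504 in WT day 4, and 10231 and 8777 in WT day 1 epithelium. It was 0.99 ± 0.23 above WT day 4 in heterozygotes (trend adjusted p = 0.00977, default 0.241). The tight junction gene Cldn1 read 2471 and 1575 in heterozygotes, 897 and 1095 in WT day 4, and 348 and 335 in WT day 1 epithelium, and was 0.99 ± 0.30 above WT day 4 (trend adjusted p = 0.0422, default 0.315). The integrin subunits Itgb1 and Itga3 differed by 0.11 ± 0.29 and -0.10 ± 0.36 and did not pass.

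Markers of other cells that epithelial sheets can carry differed between the groups and are given beside the member changes. The summed signal of 8 stromal markers was 449 and 846 in heterozygotes, 1594 and 2775 in WT day 4, and 3478 and 8902 in WT day 1 epithelium, and 2 of the 8 averaged below 50. The sum of 6 smooth muscle markers was 190 and 172 in heterozygotes, 392 and 309 in WT day 4, and 893 and 891 in WT day 1 epithelium. That of 4 mesothelial markers was 102 and 159 in heterozygotes, 212 and 387 in WT day 4, and 412 and 877 in WT day 1 epithelium. These sums were thus lowest in heterozygotes and highest on day 1. Of these 3 lists only the stromal Col3a1 passed between heterozygotes and WT day 4, as lower (-3.16 ± 0.96, trend adjusted p = 0.0280, limma default 0.319). With the trend 1.59% of all genes were lower. The list medians were -1.41, -0.84 and -1.48 in that order, against -0.20 over all genes. Against WT day 1, 5 stromal, 3 smooth muscle and 1 mesothelial markers were lower in heterozygotes with the trend (9.65% of all genes). The sum of 5 oviduct and ciliated cell markers was 21158 and 11208 in heterozygotes, 6002 and 7502 in WT day 4, and 446 and 513 in WT day 1 epithelium, and on day 4 nearly all of it came from the oviduct glycoprotein gene Ovgp1, with the ciliated cell regulator Foxj1 below 50 on all arrays. The ciliary dynein gene Dnah5 read 53.5 and 56.5 in heterozygotes, 157 and 130 in WT day 4, and 40.6 and 29.8 in WT day 1 epithelium; it rose by 2.01 ± 0.25 in WT day 4 (limma adjusted p = 0.0169, and 0.0534 with the trend), and heterozygotes differed from WT day 4 by -1.36 ± 0.25 (adjusted p = 0.204). The part of these cells in the member values was not tested.

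**Figure D4:**
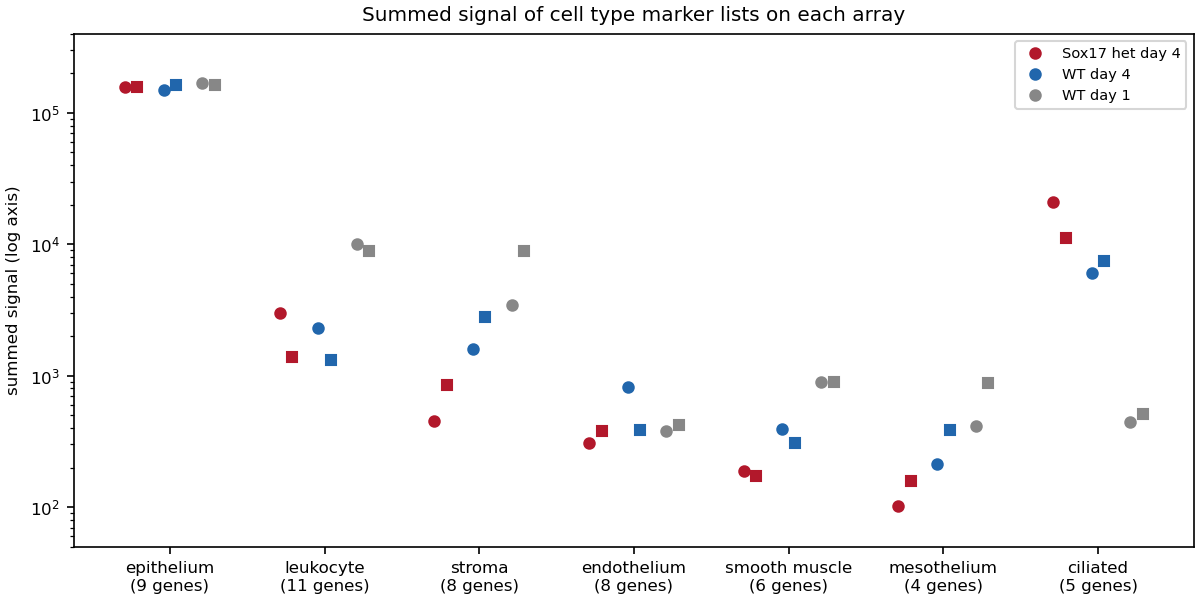
Summed signal of marker lists of 7 cell types on each array (log axis), with heterozygous day 4 in red, WT day 4 in blue and WT day 1 in grey. The epithelial sum stays within 149566 to 170154, while stromal and smooth muscle sums are lowest in heterozygotes and highest in WT day 1.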

How the data were processed

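Uterine epithelial RNA (Trizol, 100 ng per sample) was amplified, labelled with biotin and read on 1 array per sample, per the labels' protocols. The authors deposited a linear intensity per probe set. The submitters' processing notes list Transcriptome Analysis Console, RMA and Affymetrix Expression Console, giving no versions. RMA output would be on a log2 scale with equal quantiles, which these values lack: every array had a mean of 500 after 2% was trimmed at each end. The sources used here do not give the summary method. Without detection calls, signals under 50 are read as low.

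Of 45101 probe sets, 34945 had a single symbol in the platform annotation, for 18193 genes, each taken from its brightest probe set (mean log2(signal + 1)). A limma 3.58.1 model (R 4.3.3) had 1 mean per group over the 6 arrays and 3 residual degrees of freedom. P-values came from default eBayes, with Benjamini-Hochberg adjustment across the whole table and a threshold of 0.05. Folds on the log2(signal + 1) scale understate changes of dim genes. An exact permutation test of 2 arrays against 2 has a smallest p of 0.333 and was not used. Promoters were RefSeq's. Named were members that passed in either fit, those with a 2-fold heterozygous difference at an unadjusted p under 0.05, and a fixed list of well-known members, plus at most 4 partners of smallest p per comparison and a fixed list of partners. Members, gene lists and tests were chosen with earlier results of these data known. The closing section gives the alternatives.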

Additional observations from a re-analysis of the deposited data

How the results depend on the processing

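No paired analysis was possible because no sample numbers are shared between groups. With 2 arrays per group, 3 residual degrees of freedom and no detection calls, dim members have wide intervals: 5 of the 31 averaged below 50 and 10 below 100 (29.6% and 41.7% of all genes). Over 60 results of named members and up to 22 settings, 1103 of 1311 values kept direction and call, 66 gained a call, 88 lost it and 54 changed sign; the causes were not tested.

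Members called in WT day 4 against WT day 1 were 5 in a fit of the 4 arrays compared, and 0 to 10 without 1 array (0 without either WT day 1 array, 5 without either heterozygous array), or 10 to 15 without 1 array in the trend fit. Between heterozygotes and WT day 4 they were 2 of 21 among genes with a mean signal of at least 100 (Cd81 and Tm4sf1), 3 with the intensity trend, 2 with the trend after median centring (Tm4sf1 and Tm4sf4), and without 1 array 0 in the default fit and 2 to 4 with the trend. Between heterozygotes and WT day 1 they were 2 after median centring and 0 to 7 without 1 array, or 8 to 11 with the trend. Median centring moved the median of all genes from 0.30 to 0.00 for the day comparison, where the member median became -0.28, and from -0.20 to 0.25 for the heterozygous one, where it became 0.49. Without 1 array the member medians ran from -0.22 (without 277) to 0.40 (without 284) and from -0.21 (without 284) to 0.18 (without 277).

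Sign changes touched members with differences near 0 or dim signals. In the day comparison Cd151 turned to 0.037 under quantile normalization and 0.036 in the mean of probe sets, and Cd82 to -0.28 after centring. In the heterozygous comparison with WT day 4, Tspan9 turned to -0.001 under quantile normalization, Cd151 to 0.33 and Cd9 to 0.062 after centring, and Cd82 to -0.33 and Upk1b to -1.59 in the mean of probe sets. Against WT day 1, Cd151 turned to 0.012 and Tspan8 to 0.02 after centring, and Tm4sf5 to -0.041 with a pseudocount of 32. Without 1 array the day differences ran from -0.14 to 0.10 for Cd151, -0.12 to 0.16 for Cd82, -2.38 to 0.69 for Tm4sf5 and -1.48 to 1.07 for Upk1a. The heterozygous differences from WT day 4 ran from -1.46 to 2.46 for Upk1b, -0.075 to 0.27 for Tspan13, -0.10 to 0.18 for Tspan9 and -0.87 to 1.68 for Upk1a. Those from WT day 1 ran from -1.23 to 1.84 for Tm4sf5, -0.94 to 0.59 for Tm4sf1, -0.092 to 0.49 for Upk1a, -0.86 to 0.23 for Cd53 and -0.30 to 0.05 for Tspan8.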

Other observations

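Several members are neighbours in the genome, in the RefSeq annotation of GRCm38.p6, and in 1 such pair, Tm4sf1 and Tm4sf4, both genes rose between the WT days. Tspan32 and Cd81 lie next to each other on chromosome 7, yet Tspan32 read 205 and 280 in heterozygotes, 400 and 215 in WT day 4, and 349 and 266 in WT day 1 epithelium, with no call, beside the change of Cd81. Tspan11 and Tspan9 on chromosome 6 differed likewise: Tspan11 averaged 21.4 over all arrays and did not pass, while Tspan9 rose. Tspan18 and Cd82 on chromosome 2, and Cd151 and Tspan4 on chromosome 7 with 1 protein-coding gene between them, did not pass in the default or the trend fit with all arrays. Tspan4 read 44.4 and 5.95 in heterozygotes, 15.8 and 5.62 in WT day 4, and 57.3 and 139 in WT day 1 epithelium, a WT day 4 minus WT day 1 difference of -3.10 ± 1.12 (limma adjusted p = 0.158), which passed in the trend fit after each array was centred on its median.

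Tspan31, a tetraspanin gene found on all arrays at bright signals, varied little, with 6189 and 6375 in heterozygotes, 6121 and 5580 in WT day 4, and 5462 and 5306 in WT day 1 epithelium. Tspan2 read 49.6 and 38.2 in heterozygotes, 229 and 71.2 in WT day 4, and 24.8 and 35.0 in WT day 1 epithelium, which did not pass with all arrays. Cd37 read 37.0 and 24.3 in heterozygotes, 219 and 42.9 in WT day 4, and 7.89 and 18.2 in WT day 1 epithelium. In both genes WT day 4 array 277, the array with the raised dim range, gave the highest value, and without the other WT day 4 array both were called higher than in WT day 1 in either fit. The median absolute log2 difference within a pair of arrays was 0.43 over members in heterozygotes, 0.37 in WT day 4 and 0.39 in WT day 1, against 0.28, 0.58 and 0.32 over all genes.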
